A study of Papio anubis and Macaca mulatta with 6 samples.

Results

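Bone morphogenetic protein (BMP) signalling was described through 9 genes in single testis cells of prepubertal baboons and rhesus monkeys. The genes were chosen by name, and each was looked up by its symbol in the gene list of each species. They comprised the ligands BMP2, BMP4, BMP5 and BMP7, the receptors BMPR1A, BMPR1B and BMPR2, and the antagonists GREM1 and NBL1. All 9 were among the 34178 genes listed for the baboon. In the rhesus monkey, 8 of the 9 were among 21356 genes, since NBL1 was not listed there by this symbol.

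The data were unique molecular identifier (UMI) counts from 6 libraries of unselected, untreated testis cells, prepared with 10x Genomics 3′ chemistry from 2 animals of each species (olive baboon and rhesus macaque, with no genetic alteration named). Libraries 1A and 1B came from baboon 1, the third baboon library from baboon 2, 1 library from rhesus 1, and libraries 2A and 2B from rhesus 2. Baboon 2 was the only animal prepared with chemistry version 3, the others having version 2, so that animal and chemistry cannot be told apart in the baboon. The study's methods gave ages of 0 and 26 months for the baboons and 15 and 20 months for the rhesus monkeys, whereas the text of the series gave 15 and 20 months for the baboons and 0 and 26 months for the rhesus monkeys. No label tied an age to an animal, so animal 1 and animal 2 are not ordered by age here. The tissue was taken at necropsy, and a wash between both digestion steps was meant to take interstitial cells away, so that cell numbers do not describe the intact testis.

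BMPs are secreted ligands of the TGF-β family. They bind complexes of type I receptors (BMPR1A, BMPR1B and ACVR1 among them) and type II receptors (BMPR2, ACVR2A and ACVR2B), both serine/threonine kinases. The active type I receptor phosphorylates SMAD1, SMAD5 and SMAD9, which enter the nucleus with SMAD4 and induce genes such as those of the ID family, and the secreted antagonists, among them GREM1 (gremlin) and NBL1 (DAN), bind ligands outside the cell. In the mouse, BMP signals are known for the specification of primordial germ cells and for the differentiation of spermatogonia, and BMP signalling through endothelial receptors is known for its part in blood vessel formation.

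Germ-like cells held most of the BMP5 UMIs found in cells in all 4 animals, and the 200 bases before the annotated start of this ligand are therefore shown. They were read from the rhesus genome, build Mmul_10, at the gene start of the RefSeq annotation (chr4:113693331-113693530, plus strand), 5′ to 3′. Capitals mark every match, on either strand, to the E-box CANNTG, to the palindrome GGCGCC, to the GC box GGGCGG or to the TATA box TATAAA.
BMP5: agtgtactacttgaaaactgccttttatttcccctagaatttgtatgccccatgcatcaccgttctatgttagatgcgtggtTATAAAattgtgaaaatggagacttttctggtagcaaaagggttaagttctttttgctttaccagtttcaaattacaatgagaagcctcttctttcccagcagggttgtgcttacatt
The window was AT-rich, with 38% G or C and 2 CpG dinucleotides, against medians of 58.5% and 10 over the windows of 21107 protein-coding genes. It held 1 match to TATAAA, a motif found in 8.03% of all windows. It held no match to CANNTG (in 52.0% of all windows), GGCGCC (in 15.2%) or GGGCGG (in 41.0%), and a match to such short letters, or none, describes the sequence only.

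Cells were clustered without the genes of the BMP pathway, so that none of the 9 genes took part in defining the classes, and clusters were named from marker genes. The 23046 baboon cells gave 12 clusters in 6 classes, germ-like (303 cells), Sertoli-like (17398), stroma-like (4691), endothelial-like (355), pericyte-like (181) and macrophage-like (118). The 26480 rhesus cells gave 14 clusters in 8 classes, the same 6 kinds (568, 8110, 15292, 752, 403 and 223 cells in that order), Leydig-like cells (574) and peritubular myoid-like cells (99), while 459 cells of 2 clusters stayed unnamed. Defining markers were found in each class, but several classes were mixed by their markers. The macrophage-like class of the baboon also carried 9 of 9 lymphoid markers, with a summed level of 3780 and 2871 CPM (UMIs of a gene per 1000000 UMIs of all genes) in the 2 animals, the endothelial-like class of rhesus 1 carried 9 of 9 (2332 CPM, against 1.86 in rhesus 2), and the pericyte-like class of the baboon also scored for peritubular myoid markers. The pericyte-like class of rhesus 1 carried 7393 CPM of stroma markers against 1855 CPM of pericyte markers, and the peritubular myoid-like class of the rhesus monkeys carried 2378 and 2387 CPM of pericyte markers. The germ-like class summed to 1807 and 1626 CPM of germ cell markers in the baboons and 493 and 483 CPM in the rhesus monkeys. Median UMIs per cell were 1445 to 2746 over the 6 libraries. Libraries of the baboon shared 1 to 66 cell barcodes in pairs and those of the rhesus monkey 109 to 124.

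Each level in CPM was taken over the summed cells of a class in 1 animal. The level in free RNA, the UMIs in near-empty droplets, is given beside it as the background, and intervals are exact 95% Poisson or binomial intervals that cover counting error only. Classes were compared over the 2 animals of a species, one species at a time, by edgeR's quasi-likelihood test over all genes, each class against the mean of the other classes, and a call means a Benjamini-Hochberg adjusted p under 0.05. Each species had only 2 animals. The p-values rest on the spread between those, pooled over all classes of a species in 1 fit, and not on that of the compared classes alone.

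**Figure D1:**
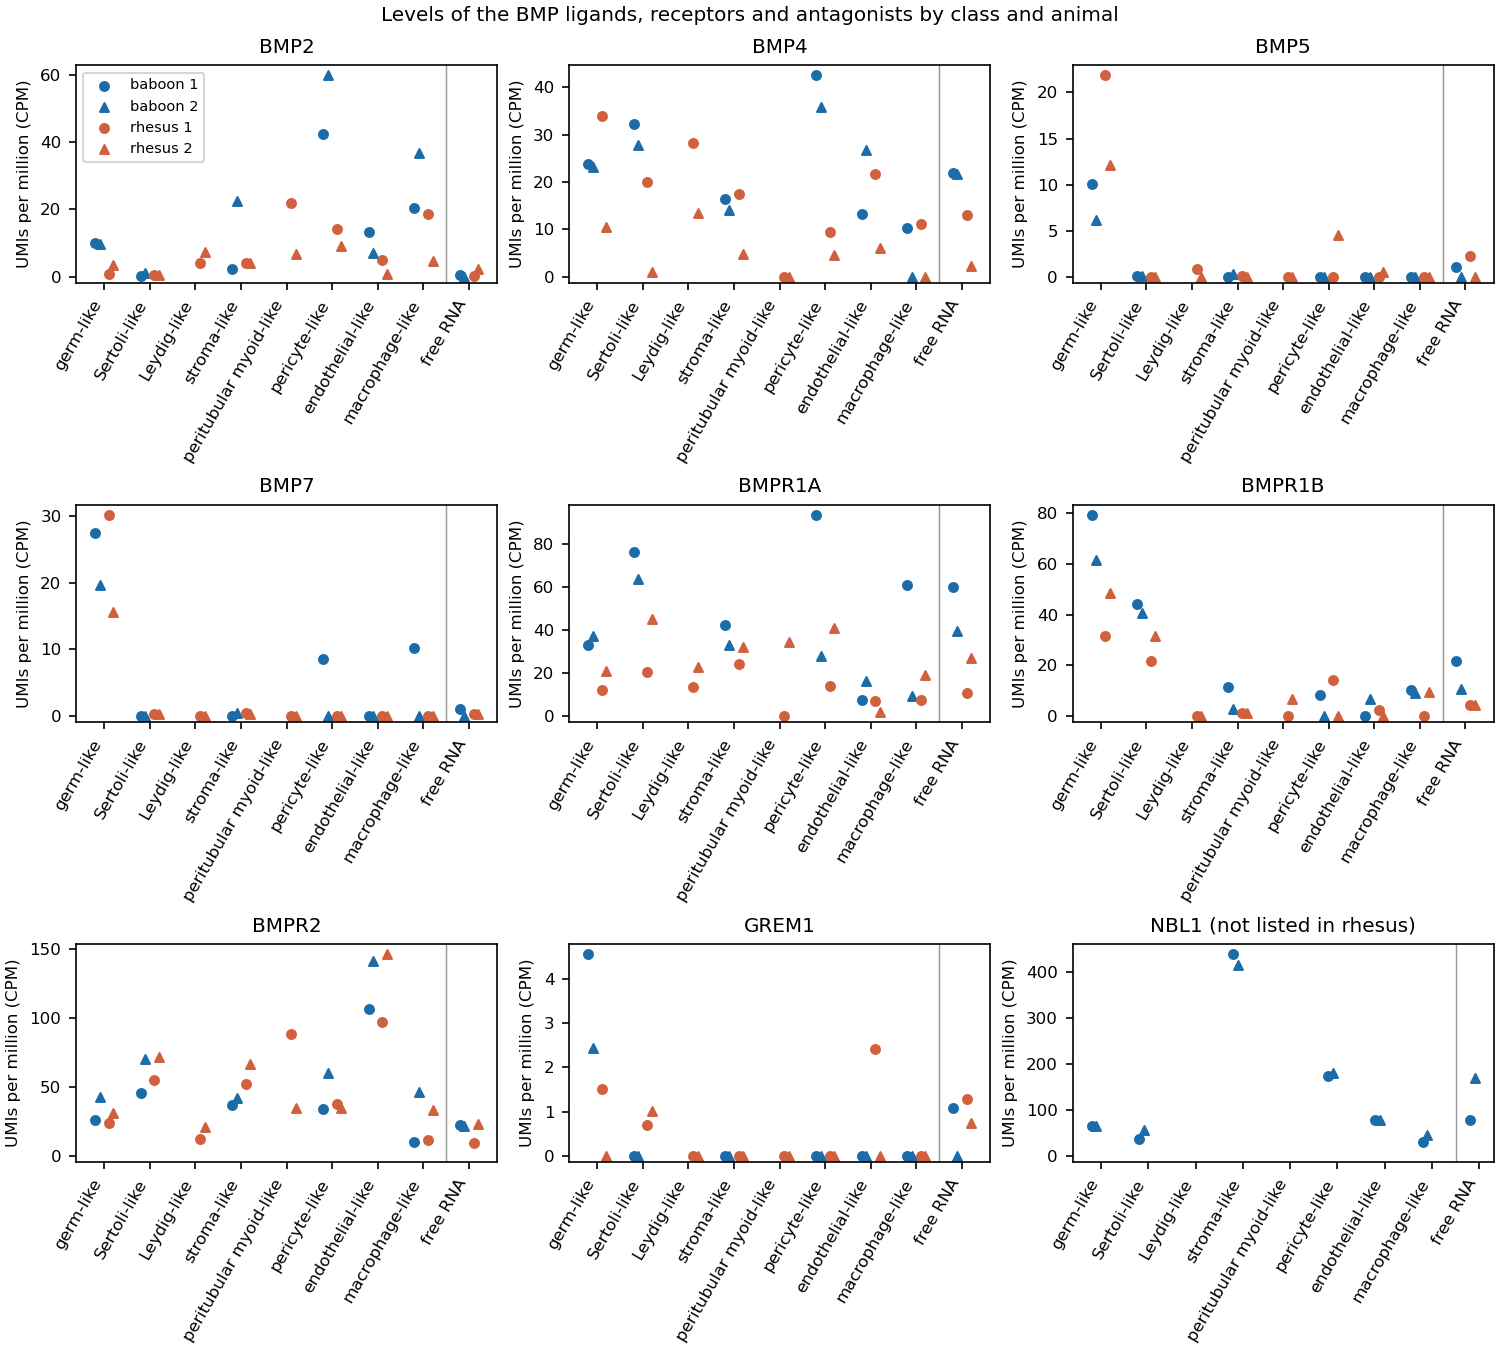
Level (CPM, linear axes that differ between panels) of each of the 9 genes by class and in free RNA, right of the grey line; blue, baboon; orange, rhesus monkey; circles, animal 1; triangles, animal 2. BMP5 and BMP7 stood above their other classes in the germ-like cells of all 4 animals, BMPR1B was highest in germ-like and then Sertoli-like cells, BMPR2 was highest in endothelial-like cells, and NBL1 was highest in stroma-like cells of both baboons.

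BMP7 and BMP5, closely related ligands of one BMP subgroup, were found mainly in germ-like cells. BMP7 (chromosome 16, 84359304 to 84455384 in Panubis1.0 and chromosome 10, 92330613 to 92430858 in Mmul_10) reached 27.4 and 19.6 CPM in the germ-like cells of baboons 1 and 2 (30 and 32 UMIs), and 30.2 and 15.6 CPM in those of rhesus 1 and 2 (40 and 9 UMIs). In all other cells of the same animals the level was 0.144 and 0.0956 CPM in the baboons and 0.484 and 0.608 CPM in the rhesus monkeys. The 4 germ-like values lay above every other named class of their animal, where the next were 10.2 CPM from 1 UMI in macrophage-like cells and 8.5 CPM from 2 UMIs in pericyte-like cells of baboon 1. In rhesus 2, an unnamed cluster of 65 cells led by LCN2 and KRT19 had 63.9 CPM (10 UMIs), and germ-like cells held 36% of the BMP7 UMIs, against 80% in rhesus 1 and 85.7% and 88.9% in the baboons. The ratio to all other cells was 191 (interval 73.3 to 630) and 205 (72.6 to 797) in the baboons and 62.3 (30.6 to 140) and 25.6 (9.97 to 61.5) in the rhesus monkeys. BMP7 passed the test in both species (edgeR, adjusted p = 0.000269 in the baboon and 0.000263 in the rhesus animals), with log2 fold changes of 5.84 ± 0.78 (SE) and 8.12 ± 1.00 that depend on the prior count, because several classes held no UMI. The gene passed the filter on low counts through its germ-like UMIs alone, every other named class of an animal holding at most 5, so that the test adds little to the levels. Without library 1A the baboon value was 8.81 (adjusted p = 0.00013 in edgeR). Of the 7 genes that passed the filter on low counts in the baboon, 3 were called in the germ-like contrast, 2 higher and 1 lower, where 33.8% of all 12190 tested genes were called. In the rhesus monkey, 2 of 6 were called, both higher, where 36.7% of 9475 genes were called.

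BMP5 (chromosome 6, 54304804 to 54427498 in Panubis1.0 and chromosome 4, 113693531 to 113816691 in Mmul_10) followed the same order at lower counts. Its germ-like level was 10.0 and 6.12 CPM in the baboons (11 and 10 UMIs) and 21.9 and 12.1 CPM in the rhesus monkeys (29 and 7 UMIs). Outside germ-like cells, 1 and 3 UMIs were left in the baboons and 2 and 3 in the rhesus monkeys. The ratio to all other cells was 350 (50.8 to 15054) and 85.3 (21.97 to 482) in the baboons, and 226 (57.1 to 1953) and 106 (24.2 to 637) in the rhesus monkeys. Of the BMP5 UMIs in cells, germ-like cells held 91.7% and 76.9% in the baboons and 93.5% and 70% in the rhesus monkeys, from 0.958%, 2.00%, 4.31% and 0.568% of the cells. The gene did not pass the filter in either species, and without a filter it was called in germ-like cells of both (edgeR, adjusted p = 3.62e-06 and 3.58e-10, log2 fold changes of 7.41 ± 1.43 and 6.51 ± 0.96). Nearly all of its UMIs lay in that class, so that this test adds little to the levels. The sizes depend on the prior count. Free RNA held 1.09 and 0 CPM of BMP5 in the baboons and 2.23 and 0 CPM in the rhesus monkeys, and the same comparison for BMP7 gave 1.09, 0, 0.318 and 0.367 CPM. In baboon 2 the free RNA was shallow, so that its interval for either ligand reached 13.3 CPM and took in the BMP5 level of the germ-like cells.

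**Figure D2:**
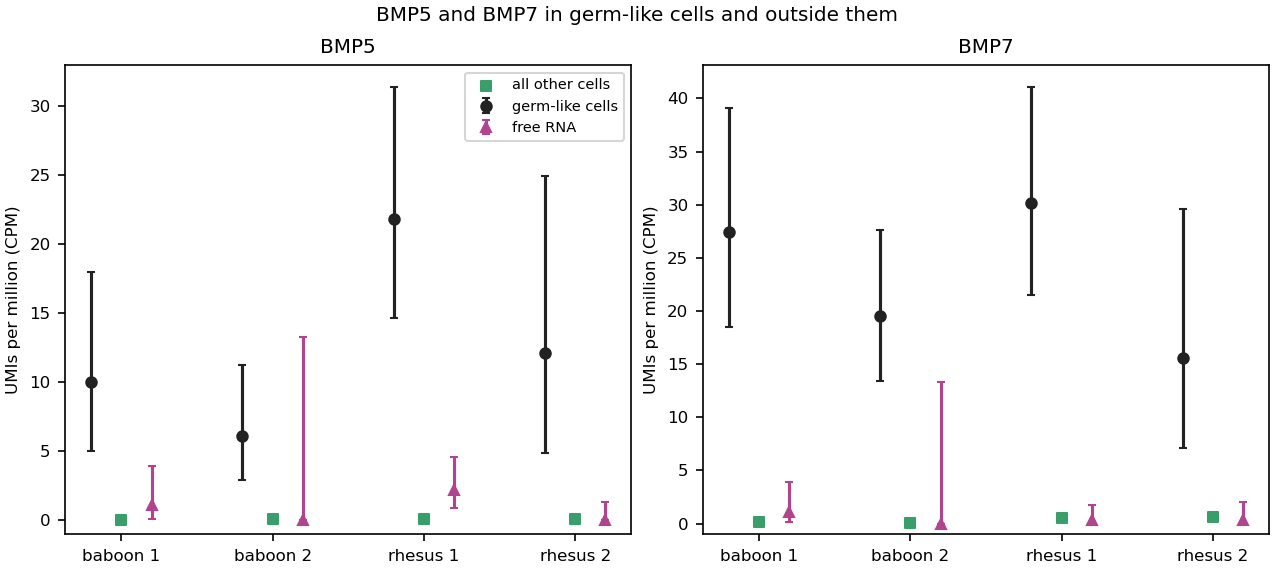
Levels (CPM) of BMP5 and BMP7 by animal in germ-like cells (black circles), all other cells (green squares) and free RNA (purple triangles); bars are exact 95% Poisson intervals of counting error. Germ-like levels of BMP7 lay between 15.6 and 30.2 and those of BMP5 between 6.12 and 21.9, while all other cells stayed under 1, and the interval of free RNA in baboon 2 reached 13.3.

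A UMI of BMP7 was found in 51 of 303 germ-like cells of the baboon (16.8%, interval 12.8 to 21.5) and in 44 of 568 of the rhesus monkey (7.75%, 5.68 to 10.3). In Sertoli-like cells the shares were 0.0172% and 0.0617%. Median UMIs per cell were 5937 and 6952 in germ-like cells of baboons 1 and 2, and 1980.5 and 4157 in Sertoli-like cells, and with every cell thinned to 1000 UMIs the shares were 3.02% and 0.00636% in the baboon and 1.63% and 0.0575% in the rhesus monkey. BMP5 was found in 19 and 31 germ-like cells. Both ligands were found together in 4 germ-like cells of the baboon and in 7 of the rhesus monkey. Of the 51 baboon cells with BMP7, 39 (76.5%) also held a UMI of DDX4, a germ cell RNA helicase found in 46.9% of all germ-like cells, and 16 of the 19 with BMP5 did (84.2%). DDX4 was rarer in the rhesus monkey, with a UMI in 8.27% of germ-like cells, and in 5 of 44 cells with BMP7 and 5 of 31 with BMP5. SOX9, a Sertoli cell transcription factor, was detected in 38.6% of germ-like cells in the baboon and in 14.6% in the rhesus monkey. It was found in 35 of the 51 baboon cells with BMP7 (68.6%) and in 14 of the 44 rhesus cells (31.8%). Of the cells with BMP5, 7 of 19 (36.8%) and 9 of 31 (29.0%) held it. The part of cell depth in the shares of DDX4 and SOX9 was not tested. In Sertoli-like cells the summed Sertoli markers were 7795 to 11254 CPM. In germ-like cells they were 898 and 2574 CPM in the baboons and 798 and 521 CPM in the rhesus monkeys. These sums exceeded those of the germ cell markers in baboon 2 and in both rhesus monkeys, as did the stroma markers in rhesus 1 (743 CPM). Leydig cell markers summed to 443 and 514 CPM in germ-like cells of the rhesus monkeys, against 493 and 483 CPM of germ cell markers. The part of such RNA in the germ-like levels was not tested. When germ-like cells were instead taken 1 by 1 from their own marker UMIs, BMP7 stood at 30.6 and 23.6 CPM in the baboons (87 and 84 cells) and at 41.7 and 5.11 CPM in the rhesus monkeys, where only 23 and 10 cells remained and held 6 and 1 UMIs.

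BMP2, known as an inducer of bone, was lowest in Sertoli-like cells. The gene lies on chromosome 16 (51602012 to 51614534) in Panubis1.0 and on chromosome 10 (59734131 to 59746413) in Mmul_10. Its Sertoli-like level was 0.0965 and 1.04 CPM in the baboons and 0.349 and 0.380 CPM in the rhesus monkeys (3 and 3 UMIs), and each was below every other named class of the same animal. The baboon values elsewhere were 10.0 and 9.79 CPM in germ-like, 13.3 and 6.95 in endothelial-like, 20.4 and 36.7 in macrophage-like and 42.5 and 59.8 CPM in pericyte-like cells. The rhesus values elsewhere ran from 0.754 CPM (1 UMI, germ-like cells of rhesus 1) to 22.02 CPM (1 UMI, peritubular myoid-like cells of rhesus 1). The Sertoli-like contrast was called in both species, with log2 fold changes of -5.01 ± 0.95 in the baboon (edgeR, adjusted p = 0.00452) and -3.88 ± 0.84 in the rhesus monkey (adjusted p = 0.00703). In that contrast 3 of 7 genes were called in the baboon, 1 higher and 2 lower, where 15.7% of all genes were called, and 2 of 6 in the rhesus monkey, 1 in each direction, where 12.3% were called. Against all other cells summed, the baboon value was -4.43 and lost the call (adjusted p = 0.0545), and without baboon 2 it was -6.64, with no test. Pericyte-like cells of the baboon had the highest mean, 51.1 ± 12.2 CPM (SD, n = 2), yet their contrast gave 2.78 ± 0.79 on the log2 scale and an adjusted p of 0.0693 in edgeR, and 2.89 ± 0.70 with an adjusted p of 0.0161 when the animal was a block.

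In stroma-like cells BMP2 differed between the baboons. It was 2.20 CPM in baboon 1 (6 UMIs) and 22.6 CPM in baboon 2 (135 UMIs), a ratio of 0.0972 (interval 0.0351 to 0.217), and libraries 1A and 1B of baboon 1 gave 2.90 and 0.992 CPM. Sertoli-like cells moved the same way, with a ratio of 0.0926 (0.0183 to 0.293), whereas pericyte-like cells gave 0.711 (0.286 to 1.69) and germ-like cells 1.03 (0.431 to 2.36). The Sertoli-like ratio rested on 3 and 36 UMIs, of which 9 in baboon 2 came from the 405 cells of cluster 2 (10.3 CPM). Sertoli-like cells named 1 by 1 from their own markers held only 1 and 6 UMIs (0.0594 and 0.259 CPM). The 2 animals differ in chemistry version as well as in age, so these cannot be told apart. In stroma-like cells of the rhesus monkeys the levels were 3.96 and 4.14 CPM. Free RNA held 0.546 and 0 CPM of BMP2 in the baboons and 0.318 and 2.20 CPM in the rhesus monkeys. In rhesus 2 its interval reached 4.79 CPM, above the stroma-like level there. The germ-like (3.46), endothelial-like (0.929) and macrophage-like (4.75 CPM) levels of rhesus 2 were also under that bound. Its Leydig-like (7.28), peritubular myoid-like (6.86) and pericyte-like (9.12 CPM) levels were above it.

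BMP4, the ligand best known for inducing primordial germ cells, was spread over the classes without a called contrast in either species under the test set out above. It lies on chromosome 7 of both builds (52300174 to 52555264 in Panubis1.0, 116059900 to 116138327 in Mmul_10). In the baboons it was 32.1 and 27.9 CPM in Sertoli-like, 42.5 and 35.9 in pericyte-like, 23.7 and 23.2 in germ-like, 13.3 and 26.6 in endothelial-like, 16.5 and 14.1 in stroma-like and 10.2 and 0 CPM in macrophage-like cells. Free RNA held 21.8 and 21.7 CPM, so that the Sertoli-like, pericyte-like and, narrowly, germ-like values stood above free RNA in both baboons, and the interval of free RNA in baboon 2 reached 47.1 CPM. Sertoli-like cells held 91.7% and 86.2% of all BMP4 UMIs in cells, and the level there was 1.71 (interval 1.38 to 2.14) and 1.62 (1.36 to 1.93) times that of all other cells. The Sertoli-like contrast gave 0.94 ± 0.36 on the log2 scale (edgeR, adjusted p = 0.109), and 0.91 ± 0.30 with an adjusted p of 0.0307 when the animal was a block.

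Rhesus 2 had less BMP4 than rhesus 1 in each of the 5 largest named classes. The levels in rhesus 1 and rhesus 2 were 19.9 and 1.01 CPM in Sertoli-like cells (171 and 8 UMIs), 17.4 and 4.71 in stroma-like cells (167 and 66 UMIs) and 33.9 and 10.4 in germ-like cells. Leydig-like cells had 28.2 and 13.3 CPM and endothelial-like cells 21.8 and 6.04 CPM. The ratio of rhesus 1 to rhesus 2 was 19.7 (interval 9.76 to 46.3) in Sertoli-like, 3.69 (2.76 to 4.99) in stroma-like, 3.27 (1.39 to 9.38) in germ-like, 2.11 (1.05 to 4.61) in Leydig-like and 3.61 (1.36 to 9.12) in endothelial-like cells. Both libraries of rhesus 2 were low in Sertoli-like cells, at 0.739 and 1.30 CPM, and in stroma-like cells, at 4.63 and 4.81 CPM. Free RNA differed in the same direction, 13.1 CPM in rhesus 1 and 2.20 CPM in rhesus 2, and its part in the difference was not tested. With 1 animal on each side, the difference compares those animals and no more. In the baboon, the ratio of animal 1 to animal 2 in Sertoli-like cells was 1.15 (1.05 to 1.26). The highest rhesus means of BMP4 were 22.2 CPM in germ-like and 20.8 CPM in Leydig-like cells. Their contrasts were 2.09 and 2.58 on the log2 scale (edgeR, adjusted p = 0.27 and 0.357). Without the low-count filter both were called, at 2.12 and 2.56 (edgeR, adjusted p = 0.0197 and 0.00737). With the block the Leydig-like contrast was 2.62 (adjusted p = 0.0532) and the germ-like one 1.91 (adjusted p = 0.103).

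BMPR1B, a type I receptor, was highest in germ-like and next in Sertoli-like cells in the sums of all 4 animals. The gene lies on chromosome 3 (138872201 to 139119228) in Panubis1.0 and on chromosome 5 (93131675 to 93525753) in Mmul_10. Germ-like cells had 79.4 and 61.8 CPM in the baboons (87 and 101 UMIs) and 31.7 and 48.4 CPM in the rhesus monkeys (42 and 28 UMIs). Sertoli-like cells had 44.4 and 40.5 CPM in the baboons and 21.8 and 31.5 CPM in the rhesus monkeys. By library, 2A of rhesus 2 had 30.4 CPM in germ-like cells, from 10 UMIs, and 32.8 CPM in Sertoli-like cells, against 72.1 and 30.2 CPM in 2B. All other named classes were at or under 14.1 CPM, and the free RNA was 21.8 and 10.8 CPM in the baboons and 4.46 and 4.40 CPM in the rhesus monkeys. The germ-like contrast gave log2 fold changes of 2.85 ± 0.54 in the baboon (edgeR, adjusted p = 0.00173) and 4.27 ± 0.71 in the rhesus monkey (adjusted p = 0.000498), and the Sertoli-like contrast 2.17 ± 0.53 (adjusted p = 0.0163) and 3.65 ± 0.69 (adjusted p = 0.00347). The germ-like values lay above the Sertoli-like ones without overlap in both species, but the difference did not pass the test, with adjusted p-values in edgeR of 0.52 in the baboon and 0.64 in the rhesus animals. That test used the spread pooled over all classes, also those near 0. Several classes were at or near 0, so the sizes rest on the prior count chosen. The germ-like value of the baboon was 4.47 without library 1B and 3.83 without baboon 2, the latter with no test, and the Sertoli-like value was 3.76 and 3.40. That of the rhesus monkey was 5.67 without rhesus 1 (no test) and 5.27 without library 2A, and the Sertoli-like value was 5.08 and 4.32. Against all other cells summed, of which Sertoli-like cells are the larger part in the baboon, the germ-like value fell to 0.41 and lost the call (adjusted p = 0.374), and the Sertoli-like value was 1.32 (adjusted p = 0.0525). Without the cells ranked as doublets, the stroma-like and endothelial-like contrasts of the baboon were called as well, at -2.64 ± 0.68 and -3.88 ± 0.93 (edgeR, adjusted p = 0.0186 and 0.0126).

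BMPR1B was also found in germ-like cells without a UMI of the Sertoli marker SOX9. Of the 186 germ-like cells of the baboon without SOX9, 46 held BMPR1B (24.7%), against 58 of 117 with SOX9 (49.6%), and of 8820 Sertoli-like cells without SOX9, 608 did (6.89%). The rhesus shares were 31 of 485 (6.39%) and 20 of 83 (24.1%) in germ-like cells and 88 of 4286 (2.05%) in Sertoli-like cells. Deeper cells hold more UMIs of every gene, and thinned to 1000 UMIs per cell, BMPR1B was found in 7.55% of germ-like and 3.94% of Sertoli-like cells of the baboon and in 2.71% and 2.44% of those of the rhesus monkey, against 0% of endothelial-like cells in both. Germ-like cells named 1 by 1 from their own markers had 80.2 and 63.5 CPM in the baboons and 27.8 and 35.8 CPM in the rhesus monkeys, the latter from 4 and 7 UMIs. Sertoli-like cells named in this way had 49.9 and 42.4 CPM in the baboons and 30.5 and 33.8 CPM in the rhesus monkeys, so that the order of both classes turned in rhesus 1.

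Within Sertoli-like cells, BMPR1B followed the clusters in the rhesus monkey. Cluster 3, led by DSP, MLXIPL and INHBB, had 40.8 and 44.8 CPM, and cluster 1, led by PCP4, FABP3 and INHA, had 4.64 and 7.76 CPM. BMPR2 moved with it, at 105 and 100 CPM in cluster 3 against 9.73 and 19.0 CPM in cluster 1, and BMPR1A had 29.5 and 51.9 against 12.6 and 33.5 CPM. All 3 receptors were higher in cluster 3 within each animal, and only the BMPR1A values overlapped between animals. The levels of cluster 1 were near those of free RNA. In rhesus 1 and 2 free RNA held 4.46 and 4.40 CPM of BMPR1B, 9.23 and 23.1 of BMPR2 and 10.8 and 27.1 of BMPR1A. In the baboon the Sertoli-like cluster that stood apart was led by ribosomal protein genes such as RPL31 and RPS20, where baboon 1 had 12.4 CPM of BMPR1B and 6.68 CPM of BMPR2 but baboon 2 had 44.6 and 50.3 CPM. Both values of baboon 1 lay below its free RNA, at 21.8 and 22.4 CPM. In the other 5 Sertoli-like clusters of the baboon, BMPR2 ranged from 36.6 to 77.4 CPM. Cells of rhesus cluster 3 were deeper (median 2030 UMIs against 1442), and the part of depth or of free RNA in these differences was not tested.

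**Figure D3:**
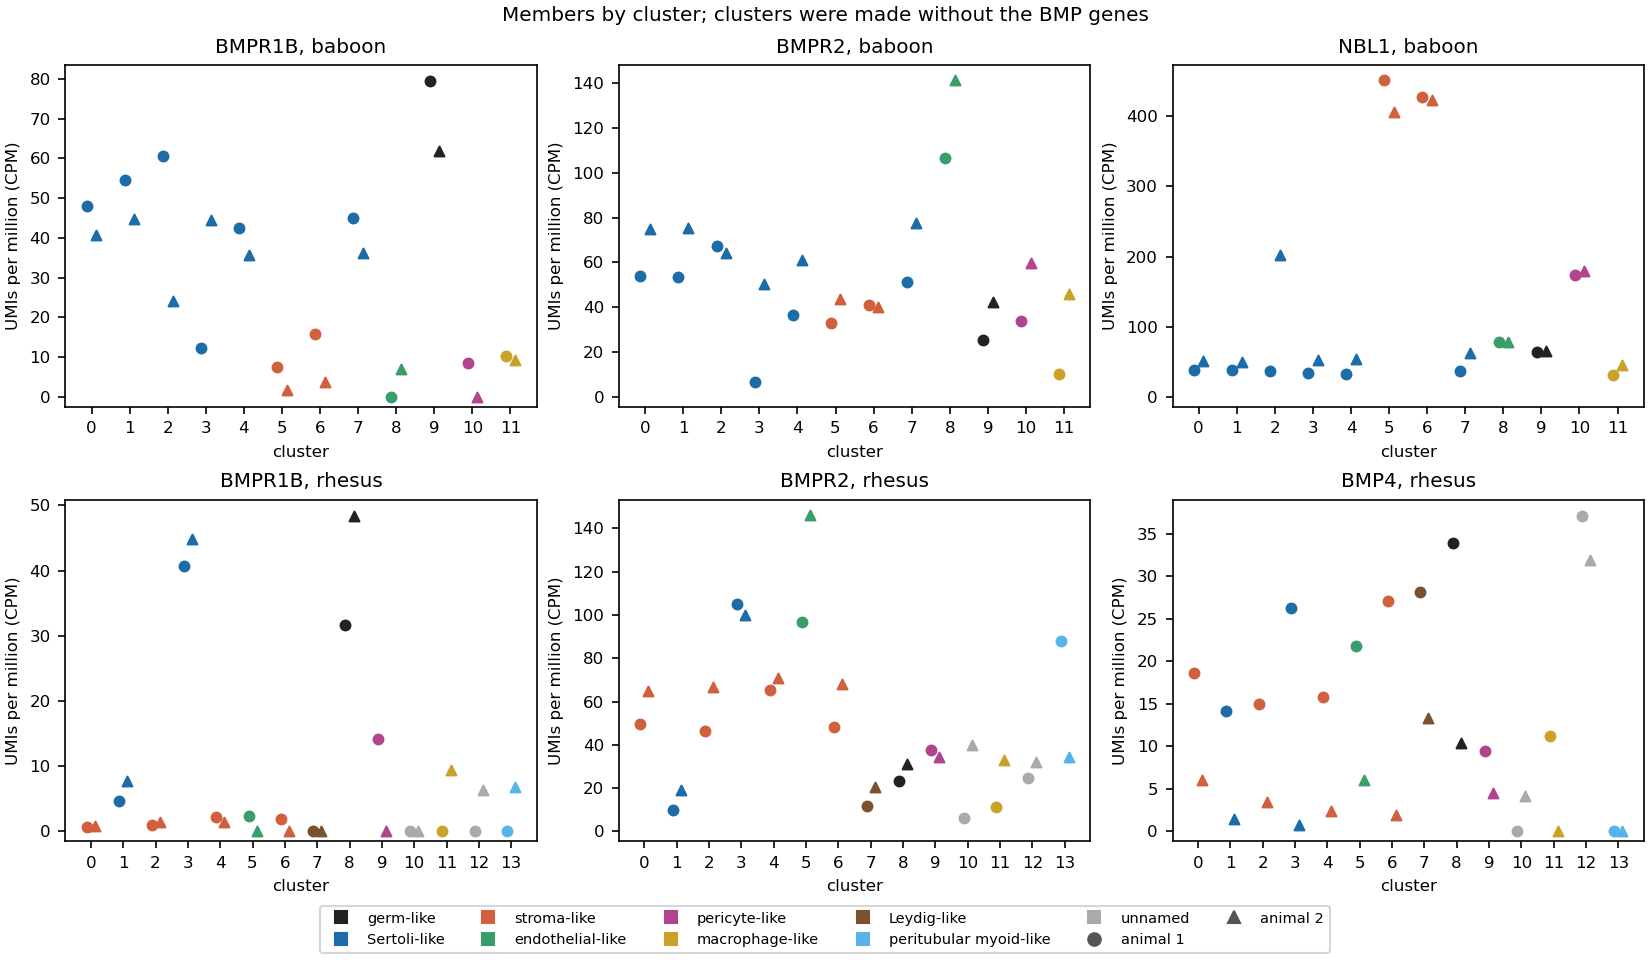
Levels (CPM) by cluster; colour, class; circles, animal 1; triangles, animal 2. Top row, baboon, with BMPR1B, BMPR2 and NBL1; bottom row, rhesus monkey, with BMPR1B, BMPR2 and BMP4. Sertoli-like cluster 3 of the rhesus monkey lay far above Sertoli-like cluster 1 for both receptors, NBL1 was at 406 to 452 in both stroma-like clusters of the baboon, and the BMP4 triangles of rhesus 2 lay below the circles in most clusters.

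BMPR2, the type II receptor whose loss-of-function mutations are known in hereditary pulmonary arterial hypertension, was highest in endothelial-like cells of all 4 animals. It lies on chromosome 10 (86223472 to 86428046) in Panubis1.0 and on chromosome 12 (89728412 to 89937027) in Mmul_10. Its endothelial-like level was 107 and 141 CPM in the baboons (72 and 122 UMIs) and 96.7 and 146 CPM in the rhesus monkeys (40 and 315 UMIs). The next class was the Sertoli-like one in the baboon, at 45.1 and 70.1 CPM, and in the rhesus monkey the peritubular myoid-like class of rhesus 1 reached 88.1 CPM from 4 UMIs. By cluster the order differed in rhesus 1. Its Sertoli-like cluster 3 had 105 CPM (interval 95.4 to 116), above its endothelial-like cells (interval 69.1 to 132), with overlapping intervals. The contrast was called in both species, with log2 fold changes of 1.65 ± 0.28 in the baboon (edgeR, adjusted p = 0.00151) and 1.85 ± 0.27 in the rhesus monkey (adjusted p = 0.000335). Endothelial-like cells were higher than Sertoli-like cells in the baboon (adjusted p = 0.0404 in edgeR), and in the rhesus monkey this comparison gave an adjusted p of 0.059. In the endothelial-like contrast 1 of 7 genes was called in the baboon, BMPR2, where 12.8% of all genes were called, and 2 of 6 in the rhesus monkey, 1 in each direction, where 10.9% were called. The rhesus value was 1.25 against all other cells summed and lost the call (adjusted p = 0.114). The endothelial-like cells of rhesus 1 carried the lymphoid markers named above and had the lower level of the 2 rhesus monkeys. Without rhesus 1 the value was 1.94, with no test, and the part of cells with lymphoid markers was not tested. Endothelial-like cells named 1 by 1 from their own markers had 139 CPM in rhesus 1 (27 UMIs, 39 cells) and 152 CPM in rhesus 2. Sertoli-like cells named in this way had 67.7 and 70.6 CPM.

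A UMI of BMPR2 was found in 32.1% of endothelial-like cells of the baboon and in 28.1% of those of the rhesus monkey, and in 11.5% and 10.7% after thinning to 1000 UMIs. After thinning, Sertoli-like cells had 4.79% and 5.03%, stroma-like cells 3.98% and 5.67%, and germ-like cells 3.40% and 1.36%. Germ-like cells had 25.6 and 42.2 CPM in the baboons and 23.4 and 31.1 CPM in the rhesus monkeys. Free RNA held 22.4 and 21.7 CPM in the baboons and 9.23 and 23.1 CPM in the rhesus monkeys, so that the germ-like levels of baboon 1 and rhesus 2 were close to it. The germ-like contrast missed the threshold in both species, at -0.87 ± 0.33 (edgeR, adjusted p = 0.0585) and -0.91 ± 0.35 (adjusted p = 0.0552), and passed it with the animal as a block, at -0.88 ± 0.23 (adjusted p = 0.00552) and -0.87 ± 0.30 (adjusted p = 0.0242). Stroma-like cells had 36.6 and 41.9 CPM in the baboons and 51.7 and 66.2 CPM in the rhesus monkeys, and pericyte-like cells 34.0 and 59.8 and 37.7 and 34.2 CPM. The lowest values of the baboons were in macrophage-like cells of baboon 1, at 10.2 CPM from 1 UMI, against 45.9 CPM in baboon 2. In Leydig-like cells of the rhesus monkeys BMPR2 was 11.8 and 20.6 CPM, and their contrast gave -1.09 ± 0.36 (adjusted p = 0.123 in edgeR) and, with the block, -1.08 ± 0.32 (adjusted p = 0.0413).

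BMPR1A, the other type I receptor, was found in most classes and had its lowest mean in endothelial-like cells of both species. It lies on chromosome 11 (83085118 to 83254121) in Panubis1.0 and on chromosome 9 (51102000 to 51268693) in Mmul_10. Endothelial-like cells had 7.40 and 16.2 CPM in the baboons (5 and 14 UMIs) and 7.26 and 1.86 CPM in the rhesus monkeys (3 and 4 UMIs). Sertoli-like cells had 76.1 and 63.8 CPM in the baboons and 20.6 and 45.3 CPM in the rhesus monkeys. The other classes of the baboons were at 42.5 and 33.2 CPM in stroma-like, 32.9 and 37.3 in germ-like, 93.5 and 27.9 in pericyte-like and 61.1 and 9.17 CPM in macrophage-like cells. Those of the rhesus monkeys lay between 0 and 41.0 CPM, with stroma-like cells at 24.2 and 32.0 and germ-like cells at 12.1 and 20.8 CPM. The ranges of most classes thus overlapped, and free RNA had 60.04 and 39.7 CPM and 10.8 and 27.1 CPM. The endothelial-like values lay below free RNA in all 4 animals. They were the lowest of the named classes in baboon 1 and rhesus 2, whereas macrophage-like cells of baboon 2 were lower, at 9.17 CPM from 2 UMIs, and peritubular myoid-like cells of rhesus 1 had no UMI. The endothelial-like contrast was called in the rhesus monkey, -2.77 ± 0.72 on the log2 scale (edgeR, adjusted p = 0.0225). It lost the call without library 2A (-2.80, adjusted p = 0.0512) or library 2B (-2.14, adjusted p = 0.0607), and without rhesus 1 it was -3.95, with no test. In the baboon it was -1.81 ± 0.57 (adjusted p = 0.0598 in edgeR) and -1.73 ± 0.44 with the block (adjusted p = 0.0102), and without the cells ranked as doublets, which were 17.6% of the endothelial-like cells of baboon 2, it was -2.91 ± 0.64 (adjusted p = 0.00736). Sertoli-like cells were 1.99 (interval 1.71 to 2.32) and 2.02 (1.79 to 2.30) times all other cells in the baboons, with a contrast of 1.18 ± 0.39 (adjusted p = 0.0658 in edgeR) and 1.17 ± 0.26 with the block (adjusted p = 0.00268). In the rhesus monkey the block also brought the Sertoli-like contrast to the threshold, at 0.87 ± 0.30 (adjusted p = 0.0487), from 0.83 ± 0.42 (adjusted p = 0.249 in edgeR).

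The 3 receptors thus had different orders of classes. Among the named classes, endothelial-like cells had the highest level of BMPR2 in all 4 animals and the lowest mean of BMPR1A in both species. In rhesus 1, Sertoli-like cluster 3 taken alone had more BMPR2 (105 against 96.7 CPM). BMPR1B in endothelial-like cells was at 0 and 6.95 CPM in the baboons and 2.42 and 0 CPM in the rhesus monkeys. Germ-like and Sertoli-like cells held UMIs of all 3, but the germ-like level of BMPR1A lay below free RNA in 3 of the 4 animals and, in rhesus 1, under the 15.1 CPM that the interval of free RNA reached. In single cells, BMPR1B and BMPR2 were found together in 39 of 303 germ-like cells and 745 of 17398 Sertoli-like cells of the baboon, and in 14 of 568 and 112 of 8110 of the rhesus monkey.

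**Figure D4:**
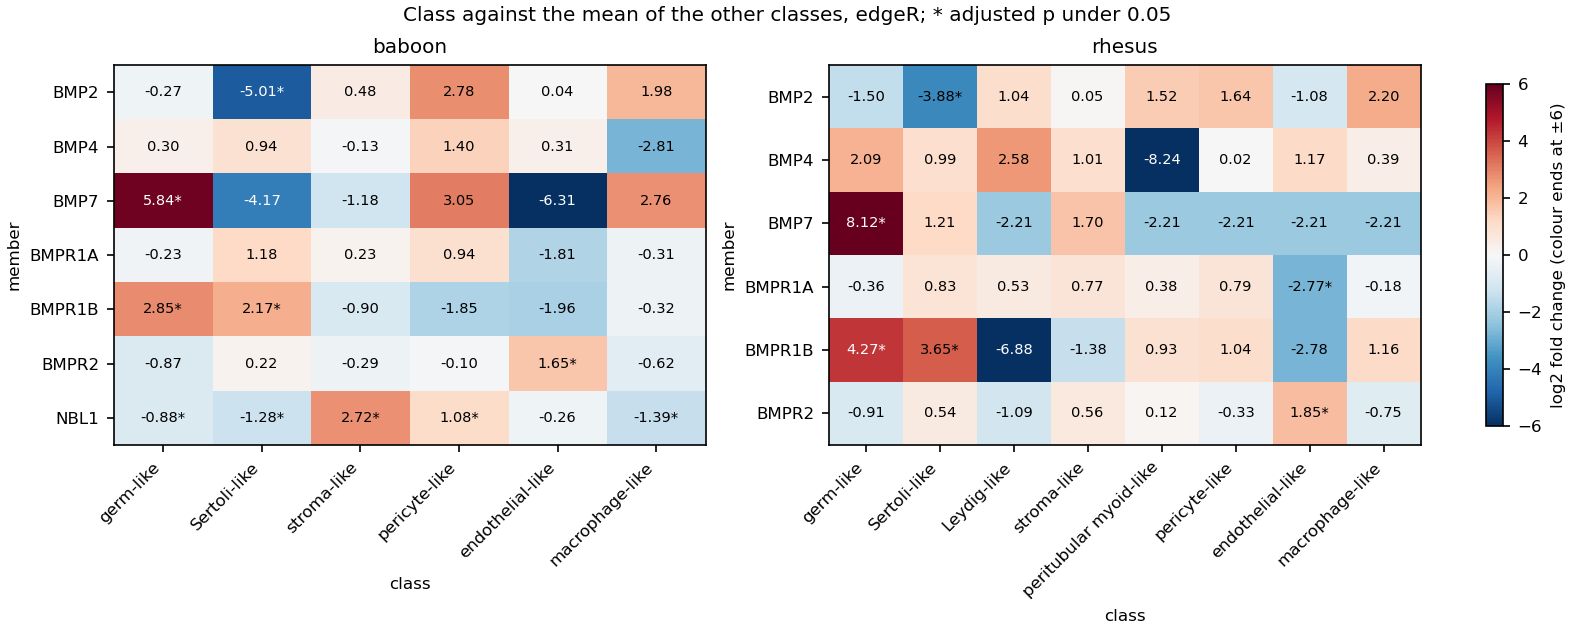
Log2 fold change of each class against the mean of the other classes for the genes that passed the filter on low counts (rows), by class (columns), in the baboon (left) and the rhesus monkey (right); red, higher; blue, lower; an asterisk marks an adjusted p under 0.05 in edgeR. Of 42 values in the baboon 10 were called and of 48 in the rhesus monkey 6. Of all tested genes, 5.69% to 33.8% were called per class in the baboon and 2.18% to 36.7% in the rhesus monkey. Large blue values of BMP7, BMP4 and BMPR1B come from classes with few or no UMIs and depend on the prior count. Among them, BMP7 in Sertoli-like cells of the baboon (-4.17) had 2 and 1 UMIs. The called blue values of BMP2 in Sertoli-like cells also rest on few UMIs, 3 and 36 in the baboons and 3 and 3 in the rhesus monkeys.

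NBL1, a secreted antagonist of the DAN family, was highest in stroma-like cells of the baboon. It lies on chromosome 1 (17879345 to 17894413) in Panubis1.0. Stroma-like cells had 440 and 415 CPM (1202 and 2478 UMIs) and pericyte-like cells 174 and 179 CPM. Endothelial-like cells had 78.4 and 77.6, germ-like 63.9 and 64.8, Sertoli-like 36.4 and 55.8 and macrophage-like 30.6 and 45.9 CPM, against 77.0 and 170 CPM in free RNA. The stroma-like values lay above free RNA in both animals, and those of pericyte-like cells above it in baboon 1 and near it in baboon 2. Both stroma-like clusters had like levels, 452 and 406 CPM in the cluster led by IGFBP3, CLEC3B and OGN, and 427 and 423 CPM in the cluster led by STC1, CHGA and HAPLN1. Stroma-like cells held 48.1% and 53.5% of all NBL1 UMIs in cells, at 11.3 (interval 10.4 to 12.2) and 7.22 (6.81 to 7.65) times the level of all other cells. The stroma-like contrast was called, 2.72 ± 0.18 on the log2 scale (edgeR, adjusted p = 1.75e-05), and it was the 1 gene of 7 called in that contrast, where 12.2% of all genes were called.

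The other NBL1 contrasts of the baboon were smaller. Pericyte-like cells were higher, by 1.08 ± 0.21 on the log2 scale (edgeR, adjusted p = 0.00915), and NBL1 was the 1 gene of 7 called there, where 5.69% of all genes were called. The call was lost without library 1A (1.02, adjusted p = 0.155), and classes from the marker UMIs of each cell gave 0.58 (adjusted p = 0.489). Sertoli-like cells were lower, by -1.28 ± 0.22 (adjusted p = 0.00308 in edgeR), as were germ-like cells, by -0.88 ± 0.23 (adjusted p = 0.0104, and 0.0624 against all other cells summed), and macrophage-like cells, by -1.39 ± 0.30 (adjusted p = 0.015). In the macrophage-like contrast NBL1 was again the 1 gene of 7 called, where 6.54% of all genes were called, and without library 1A it lost the call (-1.46, adjusted p = 0.141). In the pairwise comparisons, stroma-like cells were above pericyte-like cells (adjusted p = 0.014 in edgeR) and these above endothelial-like cells (adjusted p = 0.0402), while no neighbours among endothelial-like, germ-like, Sertoli-like and macrophage-like cells passed the test (lowest adjusted p = 0.176). Between classes farther apart in this order, Sertoli-like cells were below endothelial-like cells (-0.85 ± 0.27, adjusted p = 0.0437 in edgeR). In 1 Sertoli-like cluster, cluster 2, the 405 cells of baboon 2 had 202 CPM of NBL1, against 36.7 CPM in the 2815 cells of baboon 1, and the other 5 Sertoli-like clusters ranged from 33.1 to 63.2 CPM. The value of 202 CPM lay within the interval of free RNA in baboon 2, 125 to 226 CPM, whose part was not tested.

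GREM1, an antagonist of BMP2, BMP4 and BMP7, was at the limit of detection. It lies on chromosome 7 of both builds (154203234 to 154220220 in Panubis1.0, 9063054 to 9080028 in Mmul_10). In the baboon all of its 9 UMIs in cells came from germ-like cells, 5 in baboon 1 (4.57 CPM) and 4 in baboon 2 (2.45 CPM), each from a different cell. With a floor of 3 counts over all other cells of the animal, the measured levels were at least 53.0-fold and 34.1-fold higher in germ-like cells, and the counting interval of the ratio started at 29.1 and 16.9. Of the 9 cells, 7 also held DDX4 and 6 held SOX9. Sertoli-like cells of the baboon had 0 UMIs in 17398 cells, and free RNA had 1.09 and 0 CPM. The intervals of free RNA reached 3.94 and 13.3 CPM. Those of the germ-like levels started at 1.48 and 0.667 CPM, so that they overlapped with free RNA in both baboons. In the rhesus monkey, Sertoli-like cells held 6 and 8 UMIs (0.698 and 1.01 CPM) and germ-like cells 2 and 0 (1.51 and 0 CPM). Endothelial-like cells of rhesus 1 held 1 UMI (2.42 CPM), and free RNA had 1.27 and 0.733 CPM. In rhesus 1 the Sertoli-like level was below the germ-like one, whose interval of 0.183 to 5.45 CPM took it in. The interval of the germ-like 0 in rhesus 2 reached 6.38 CPM. The order of both classes is thus open in both rhesus monkeys. The gene was filtered in both species, and without a filter the germ-like contrast was called in the baboon only (edgeR, adjusted p = 0.00142). That call repeats the 9 UMIs above and adds little to the levels. The difference between the species was not tested.

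Further genes of the pathway were tested in the same fits, of which 25 of 47 listed passed the filter in the baboon and 18 of 45 in the rhesus monkey. Endothelial-like cells had higher levels of the co-receptor endoglin (ENG), the type I receptor ACVRL1, the co-receptor TGFBR3 and the transducers SMAD1 and SMAD5 in both species. In all, 8 of 25 were higher and 2 lower in the baboon, where 12.8% of all genes were called, and 5 of 18 higher and 2 lower in the rhesus monkey, where 10.9% were called. ID4 was lower in both, BAMBI in the baboon and RGMA in the rhesus monkey. SMAD1 was 188 and 183 CPM in endothelial-like cells of the baboons, a log2 fold change of 4.16 ± 0.34 (edgeR, adjusted p = 5.28e-06), and 16.9 and 49.2 CPM in those of the rhesus monkeys, 5.54 ± 0.65 (adjusted p = 0.000104). The endothelial-like sum of rhesus 1 held only 413441 UMIs of all genes, so its 16.9 CPM rests on few counts. Whether SMAD1 passed the filter there through endothelial-like sums alone, and the part of the prior count in the rhesus size, were not tested. ENG had 472 and 472 CPM in endothelial-like cells of the baboons and 404 and 996 CPM in those of the rhesus monkeys. In rhesus 1 the Leydig-like level of ENG was higher, at 470 CPM. ID1, a direct target of the SMADs, had 853 and 761 CPM in endothelial-like cells of the baboons, a log2 fold change of 3.85 ± 0.33 (edgeR, adjusted p = 7.91e-06), and ID3 and ATOH8 were higher there as well. In the rhesus monkey ID1 was 70.1 and 276 CPM in those cells and was not called, and ATOH8 had no UMI in any class.

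Germ-like cells had 11 of 25 pathway genes higher and 3 lower in the baboon, and 5 of 18 higher and 4 lower in the rhesus monkey, in contrasts where 33.8% and 36.7% of all genes were called. ID4, a SMAD target gene and a known marker of spermatogonial stem cells, was 490 and 220 CPM in germ-like cells of the baboons, against at most 110.5 CPM in any other class, and its log2 fold change was 3.83 ± 0.36 (edgeR, adjusted p = 2.4e-05). In the rhesus monkeys it was 408 and 303 CPM in germ-like cells and at most 75.4 CPM in the other named classes (4.2 ± 0.32, adjusted p = 1.18e-06). FST, follistatin, an antagonist of activins and some BMPs, was 34.7 and 26.3 CPM in germ-like cells of the baboons and 24.9 and 27.7 CPM in those of the rhesus monkeys, against at most 4.84 CPM in the other named classes. It was called in both species (edgeR, adjusted p = 0.000116 and 0.000609), as were the co-receptor RGMB (2.98 ± 0.41 and 2.50 ± 0.56) and the type II receptor ACVR2A (1.17 ± 0.35 and 1.90 ± 0.55). FST passed the filter on low counts through its germ-like sums alone, so that its call adds little to its levels. ENG, TGFBR3 and TWSG1 were lower in germ-like cells of both species. ACVR2B, RGMA, SMAD1, SMAD6, SMAD9 and BAMBI were higher in the baboon, whereas ID1 was higher and FSTL1 lower in the rhesus monkey. GDF7, another ligand, was 12.8 and 6.73 CPM in germ-like cells of the baboons (adjusted p = 0.0113 in edgeR) and had no UMI in any class of the rhesus monkey. By size, GDF7 of germ-like cells was not set apart from that of macrophage-like cells. Its log2 fold change in the baboon was 6.50 in germ-like and 6.24 in macrophage-like cells, and it was not called in the latter. The macrophage-like sums were shallow, at 98146 and 218052 UMIs of all genes. The values of the other baboon classes were negative. Stroma-like, pericyte-like and endothelial-like cells shared 1 value, -4.11, a pattern that classes with no UMI give. The sizes thus depend on the prior count, and the germ-like call adds little to the levels. The ID4 level of baboon 2 was under that of baboon 1, and the summed Sertoli markers in its germ-like cells were higher (2574 against 898 CPM), a difference whose part was not tested.

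Sertoli-like cells had no pathway gene higher in either species, with 10 of 25 lower in the baboon, where 7.21% of all genes were lower, and 4 of 18 lower in the rhesus monkey, where 4.18% were. ID4, FSTL1, RGMA and TGFBR3 were lower in both, and ID3, SMAD1, SMAD9, ACVRL1, ENG and ATOH8 were lower in the baboon. The median log2 fold change of the pathway genes in this contrast was -1.12 in the baboon and -0.61 in the rhesus animals, where that of all genes tested was 0.08 in both. Stroma-like cells had 5 of 25 higher and 1 lower in the baboon (12.2% of all genes called) and 4 of 18 higher in the rhesus monkey (4.49% called). The members raised in stroma-like cells of both species were TGFBR3, the follistatin-like gene FSTL1 and the co-receptor RGMA, with ID4 and ENG also higher and ID1 lower in the baboon and ACVR1 higher in the rhesus monkey. Pericyte-like cells had 3 of 25 higher in the baboon, ID3, ID4 and BAMBI, a decoy receptor, where 5.69% of all genes were called, and 0 of 18 called in the rhesus monkey, where 2.18% were. Macrophage-like cells had 1 of 25 higher in the baboon, ID2 (6.54% of all genes called), and 1 of 18 lower in the rhesus monkey, FSTL1 (8.08% called). Leydig-like cells of the rhesus monkey had 2 of 18 higher, TGFBR3 and ENG, where 436 of all 9475 genes were called. Its peritubular myoid-like cells had 1 of 18 higher, FSTL1, where 310 of 9475 were called.

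The genes whose levels were most like those of the members over the class sums of a species (12 in the baboon, 16 in the rhesus monkey) were found by Pearson's r on log2(CPM + 1), as a description. For BMP7 in the rhesus monkey the nearest named genes were ART3 (r = 0.997) and EMX1 (r = 0.994), and in the baboon MAPKAPK5 (r = 0.967), GTPBP8 (r = 0.948) and AURKA (r = 0.933). BMPR1B in the baboon was nearest to MAGEB1 (r = 0.949), TEX15 (r = 0.944) and BCAT1 (r = 0.939). NBL1 was nearest to CBR3 (r = 0.969), STC1 (r = 0.960) and ESR1 (r = 0.958), and BMPR2 in the baboon to EHD4 (r = 0.967) and CDC14A (r = 0.956). BMPR2 in the rhesus monkey had no gene above 0.772 (EPC1), and BMP2 there had none above 0.804 (CAMK1). The sums of a species share animals, libraries and the same few classes, so that any gene raised in one class gives a high r.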

How the data were processed

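The deposited files held UMI counts per gene and barcode for all barcodes of 6 libraries, which the authors made with Cell Ranger 3.1.0 on the builds Panubis1.0 (baboon) and Mmul_10 (rhesus monkey), with no normalization. Per the labels, Seurat 3.2.3 was used downstream. Library totals were 16875294 to 49803025 UMIs.

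Cells were called by a UMI cutoff and by their difference from free RNA (barcodes ranked 45001 to 90000), with at least 200 genes, using scanpy 1.11.5, pandas 2.3.3, scipy 1.17.1 and numpy 2.4.6 in Python 3.11.15. Doublets were ranked and kept. Cells were integrated and clustered by species with Seurat 5.3.0 and sctransform 0.4.2 in R 4.3.3 (3000 features, 30 components, resolution 0.5), without BMP pathway genes, and clusters were named from marker lists. UMIs were summed per animal and class (at least 10 cells each) and tested with edgeR 4.0.16 (TMM, filterByExpr, quasi-likelihood, two-sided, Benjamini-Hochberg over all genes tested), with DESeq2 1.42.0 as an alternative. On simulated counts, 200 genes changed by a log2 value of 2 were recovered to 70.5% (germ-like) and 80.5% (Sertoli-like) among 12190 genes in the baboon, and to 63% and 74.5% among 9475 in the rhesus monkey. Of the calls made there, 6.62% and 8.52% were false in the baboon and 5.26% and 6.29% in the rhesus monkey. All other genes were simulated with no difference between classes, unlike the data. Each sum was also drawn on its own, without the correlation between sums of the same animal that is given below.

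Every class came from the same animals, so the animal pairs the sums. Deviations of same-animal sums correlated at 0.143 to 0.714 over 15 pairs of classes in the baboon and 0.0934 to 0.615 over 28 in the rhesus monkey. The alternatives were other normalization, filter, cell calling, doublet removal, resolution, class assignment, sample unit, the animal as a block and leaving out each library. All 9 genes were described, pathway genes called in a contrast described were named from it, some with values, and the 3 genes most like a tested member were taken, of which those with a symbol are named in part. A few clusters, uncalled pathway genes and co-detected markers were chosen after their values were seen. The members and the lists were chosen with earlier results of these data known. The promoter window came from the RefSeq annotation of Mmul_10. Figures were drawn with matplotlib 3.10.9.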

Additional observations from a re-analysis of the deposited data

Results flagged for a closer look

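A signal of BMP7 appeared outside the named classes. Rhesus cluster 12, led by LCN2, KRT19 and ITLN1 and named for no cell type, held 10 UMIs of BMP7 in its 106 cells, a level of 42.2 CPM (UMIs per 1000000) (interval 20.2 to 77.5, counting error only). The upper bound of the level in free RNA was 2.04 CPM. All 10 UMIs came from rhesus 2 (63.9 CPM) and rhesus 1 had none among its 41 cells. The cluster entered no class contrast, and the difference was not tested across animals.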

How the results depend on the processing

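Over the class contrasts, 10 of 42 values of 7 genes were called in the baboon and 6 of 48 of 6 genes in the rhesus monkey. Of all tested genes, 5.69% to 33.8% were called per contrast in the baboon and 2.18% to 36.7% in the rhesus monkey. The counts are thus no result about the BMP genes as a set. Such shares are not given for the alternatives that follow, whose counts only compare settings. With the animal as a replicate block, which pairs the sums, 15 and 9 were called, and the added calls are those given beside their results. In the baboon, DESeq2's own test called 16, no low-count filter 16 of 54 and libraries taken as samples 17, against 11 to 12 without library 1A or 1B. In the rhesus monkey, no filter called 10 of 64. Classes from the marker UMIs of each cell called 1 there, where only 1 gene could be tested, and leaving out library 2A or 2B called 3 to 3 of 32, where 4 genes passed the filter. Leaving out baboon 2 or rhesus 1 left 1 animal, with no test. Of the called values, 6 of 10 in the baboon and 2 of 6 in the rhesus monkey missed the threshold against all other cells summed. That setting also added calls in both species. Among them were BMPR1A in Sertoli-like cells of the baboon (1.20, adjusted p = 0.0274 in edgeR) and BMPR2 in germ-like cells of the rhesus monkey (-1.49, adjusted p = 0.0132). None of the called values changed direction under the alternatives run.

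Thinning to 1000 UMIs lowered the share of cells with a UMI, in the baboon and then the rhesus monkey, to 0.755% and 2.17% for BMP5, 3.02% and 1.63% for BMP7 and 7.55% and 2.71% for BMPR1B in germ-like cells, 3.94% and 2.44% for BMPR1B in Sertoli-like cells, 11.5% and 10.7% for BMPR2 in endothelial-like cells, and 32.6% for NBL1 in stroma-like cells of the baboon. With 2 animals a species, age and animal cannot be told apart, nor chemistry and animal in the baboon, and BMP5 and GREM1 rest on few UMIs.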
